A study of Rattus norvegicus with 12 samples.

Results

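Adipokines are proteins that fat cells release into the blood or the surrounding tissue, and this account follows the genes of 7 of them, Adipoq, Lep, Retn, Cfd, Rbp4, Nampt and Apln, and of 3 adipokine receptors, Adipor1, Adipor2 and Lepr, in the mammary glands of young rats. The genes were chosen by name, and each of the 10 was found by its Entrez identifier among the 16511 genes counted. The glands came from female offspring at PND21, and the dams had received either a control diet (AIN, the CTL group, 6 libraries) or a diet high in butter fat (the HFB group, 6 libraries). Per the deposited description each litter gave 1 gland, frozen at collection, and the labels give mammary gland as the tissue, while the paper's methods describe RNA from laser-captured epithelium from a butter fat group and a group also given bisphenol A. The libraries are read as whole glands on the deposited description alone. With 1 gland and 1 library per litter, the tests set the diet difference against the spread between libraries. That spread holds litter, gland and library differences together, and they cannot be separated here. The deposited description is not consistent about when the exposure ended, while the study's methods feed the diets through mating and gestation and a control diet after birth, and no label names bisphenol A. Libraries are named by diet and library number, HFB 1 to 6 and CTL 7 to 11 and 14. Total counts ranged from 2320267 to 2760871 in the HFB libraries (median 2660268) and from 2403464 to 2944680 in the CTL libraries (median 2537563.5). Levels are given as CPM, the counts divided by the TMM-scaled library total and multiplied by 1e6. A floor of 3 counts in a library corresponds to between 1.02 and 1.29 per 1e6 counts of the total before TMM scaling, and such a floor and any interval on counts cover counting error only.

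Adiponectin, the product of Adipoq, is secreted almost only by adipocytes and acts through the receptors encoded by Adipor1 and Adipor2, which raise fatty acid oxidation and insulin sensitivity. Leptin, the product of Lep, reports fat stores to the brain and also acts on peripheral tissues through the receptor encoded by Lepr, which signals by way of Jak2 and Stat3. The mammary gland grows as an epithelial tree inside a fat pad, so in a young animal most of the tissue of a whole gland is adipose.

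Adipocyte markers were counted in every library. All 11 adipocyte marker genes found in the table out of 12 listed (genes of fatty acid uptake and binding, lipid droplets, triglyceride synthesis and lipolysis, with the transcription factor genes Pparg and Cebpa, none of them among the 10 genes) were above 0 throughout, and the most abundant was Fabp4, with between 11394 and 25255 CPM. The summed level of the 11 genes was 17387 CPM in CTL 14 and 19976 CPM in HFB 6, and between 36011 and 46508 CPM in the other libraries. As a mean of log2 CPM, called the adipocyte marker score, this gave 8.97 in CTL 14, 8.60 in HFB 6 and 10.27 in HFB 5, against 10.54 to 10.87 elsewhere. HFB 6 and CTL 14 thus stood apart, 1 in each diet. In bulk tissue, fewer adipocytes and less RNA per adipocyte cannot be told apart.

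Other gene lists were also at or near their extremes in HFB 6 and CTL 14, and in part in HFB 5. The 8 epithelial markers found out of 10 summed to 698 CPM in HFB 6, 691 CPM in CTL 14 and 644 CPM in HFB 5, against 121 to 541 CPM elsewhere, with Krt8, a keratin of luminal cells, the most abundant. The next sums, 541 CPM in CTL 7 and 493 CPM in CTL 11, followed without a clear gap. The 7 lymphoid marker genes found out of 8 summed to 895 CPM in CTL 14 and 890 CPM in HFB 6, then to 193 CPM in HFB 1 and 84.4 CPM in HFB 2, and to at most 42.6 CPM in any other library, with Cd79b, a part of the B cell receptor, the most abundant (263 CPM in HFB 6 and 231 CPM in CTL 14). Lymphoid markers were at 0 counts for 3 of the 7 genes in CTL 11 and for 1 gene each in HFB 3 and HFB 4. A transcript length index was computed as the mean log2 CPM of 18 genes with very long messenger RNAs minus that of 72 ribosomal protein genes, whose messenger RNAs are short. It was -4.56 in HFB 6, -4.35 in HFB 5 and -3.89 in CTL 14, and between -3.38 and -2.18 in the other 9 libraries. Ribosomal protein genes took 10.2% of all counts in HFB 6, 8.64% in CTL 14 and 6.95% in HFB 5, against at most 5.75% elsewhere. The part of the index and of these marker lists in the values of the 10 genes was not tested.

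**Figure D1:**
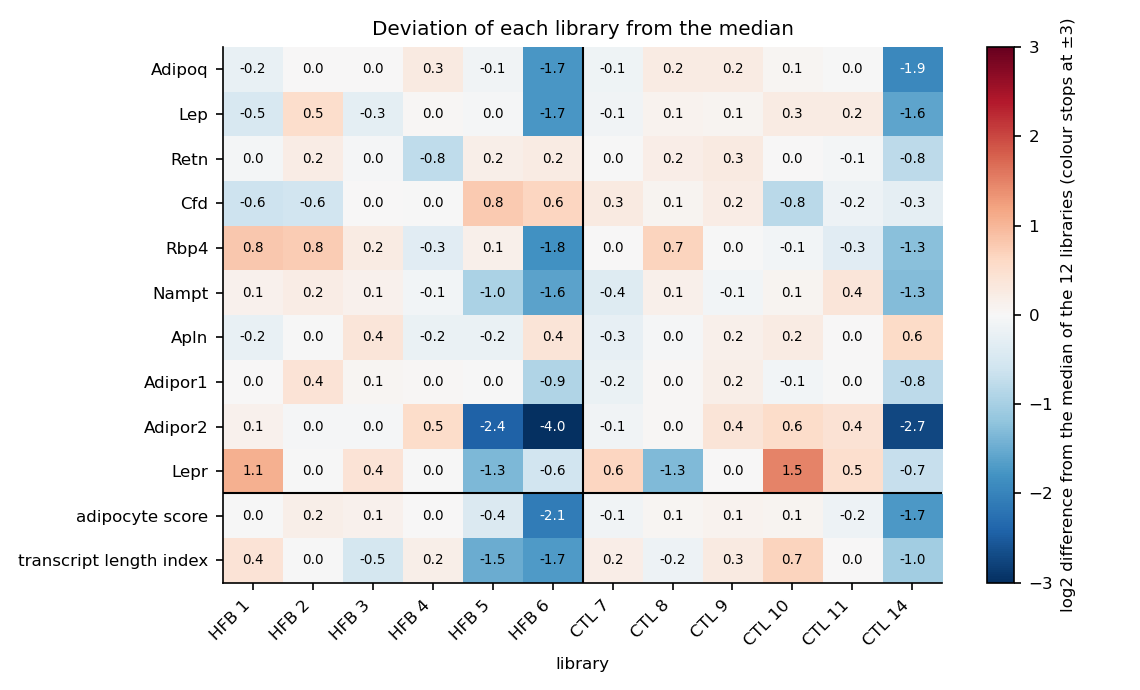
Difference of each library (columns, HFB on the left and CTL on the right) from the median of the 12 libraries, in log2 units of CPM for the 10 genes and in log2 units for the adipocyte marker score and the transcript length index (rows). HFB 6 and CTL 14 are low for Adipoq, Lep, Rbp4, Nampt, Adipor1, Adipor2 and the adipocyte score, and HFB 5 is low for Nampt, Adipor2 and the length index.

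Among the secreted adipokines, Adipoq was at 1800 CPM in the lowest HFB library, 5811 CPM at the median and 7194 CPM in the highest, and at 1564, 6122 and 7143 CPM in the CTL libraries (5305 ± 1848 and 5591 ± 2075 CPM, mean and SD, n = 6 each). The lowest library of each diet was HFB 6 or CTL 14, the other 10 lay between 5145 and 7194 CPM, and the diets overlapped throughout. With 4442 counts or more in every library, counting error was a minor part of this spread: the coefficient of variation over the 12 libraries was 34.5%, and counting alone gives 0.844%.

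Lep ran from 284 CPM in HFB 6 through a median of 846 CPM to 1362 CPM in HFB 2, and in the CTL group from 317 CPM in CTL 14 through a median of 1017 CPM to 1133 CPM in CTL 10. Rbp4, which encodes the plasma carrier of retinol, had a lowest, median and highest level of 530, 2149 and 3285 CPM in the HFB libraries and 789, 1818 and 2980 CPM in the CTL libraries. HFB 6 and CTL 14 were again lowest, and in both genes the ranges of the diets overlapped. Adipoq, Lep and Rbp4 therefore shared their 2 low libraries.

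The stretches upstream of these 3 genes are shown as examples of secreted genes low in the same libraries. Nampt, Adipor1 and Adipor2 were low there too, and their windows are not printed. RefSeq windows of the GRCr8 assembly were found for 9 of the 10 genes (not for Nampt), and the 250 bases before the annotated start are printed 5′ to 3′ for Adipoq (chr11:91240170-91240419, minus strand), Lep (chr4:58626288-58626537, plus strand) and Rbp4 (chr1:245313552-245313801, minus strand). Capitals mark matches on either strand to 4 motifs, the C/EBP element, the TATA box, the CCAAT box and the PPAR element, and N stands for any base: C/EBP is TTGCNNAA; PPAR is AGGTCANAGGTCA.
Adipoq: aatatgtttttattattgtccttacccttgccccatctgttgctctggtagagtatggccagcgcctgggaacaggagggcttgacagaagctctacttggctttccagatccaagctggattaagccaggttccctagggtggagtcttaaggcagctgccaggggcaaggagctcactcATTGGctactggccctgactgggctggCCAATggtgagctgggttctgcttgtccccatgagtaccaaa
Lep: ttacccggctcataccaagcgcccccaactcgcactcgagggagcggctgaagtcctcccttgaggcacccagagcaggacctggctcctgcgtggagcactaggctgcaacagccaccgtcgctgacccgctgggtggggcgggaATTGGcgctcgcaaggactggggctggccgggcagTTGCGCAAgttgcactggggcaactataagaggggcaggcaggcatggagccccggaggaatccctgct
Rbp4: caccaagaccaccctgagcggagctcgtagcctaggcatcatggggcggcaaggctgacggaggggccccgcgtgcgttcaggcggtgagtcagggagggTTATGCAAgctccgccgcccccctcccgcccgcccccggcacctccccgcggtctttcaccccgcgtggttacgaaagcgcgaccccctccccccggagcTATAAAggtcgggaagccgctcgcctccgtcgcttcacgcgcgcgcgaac
Lep held a C/EBP match (TTGCGCAA) from 69 to 62 bases upstream of its start and 1 CCAAT match, Rbp4 held a C/EBP match (TTATGCAA) and a TATA match (from 50 to 45 bases upstream), and Adipoq held 2 CCAAT matches. Of all 33469 windows of 250 bases, 9.22% held the C/EBP motif, 12.9% the TATA motif, 34.0% the CCAAT motif and 0.0508% the PPAR motif. The CCAAT motif is thus found in many windows, though not in most, and the letters alone do not show a site in use. Of the other windows, Adipor2 held 1 C/EBP match, and those of Adipor1, which was low in the same libraries, and of Retn, Cfd, Apln and Lepr held none of the 4 motifs.

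Retn and Cfd did not share this pattern in full. Retn was lowest in CTL 14 but not in HFB 6, and Cfd was lowest in neither. Retn, the gene of resistin, was at 749 CPM in HFB 4, at a median of 1345 CPM and at 1503 CPM in HFB 6 in the HFB group, and at 738 CPM in CTL 14, a median of 1271 CPM and 1543 CPM in CTL 9 in the CTL group. HFB 6, low for Adipoq, held the highest Retn level of its diet. Cfd, which encodes the complement protease adipsin, had a lowest, median and highest level of 1689, 2608 and 4463 CPM with HFB and of 1477, 2542 and 3156 CPM with CTL. Its 2 highest libraries were HFB 5 and HFB 6 (4463 and 4062 CPM), above every CTL library, and the other 4 HFB libraries lay within the CTL range.

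Nampt encodes nicotinamide phosphoribosyltransferase, which makes a precursor of NAD in cells and is also found outside them. Its level was 34.1 CPM in HFB 6, 107 CPM at the median and 122 CPM in HFB 2 in the HFB libraries, and 42.6 CPM in CTL 14, 105 CPM and 137 CPM in CTL 11 in the CTL libraries. HFB 5 was also low, at 53.8 CPM. Apln, the gene of the peptide apelin, had few counts, from 37 to 77 per library, and lay between 15.2 and 23.7 CPM with HFB (median 16.5 CPM) and between 14.9 and 27.1 CPM with CTL (median 19.1 CPM). Apln was highest in CTL 14 and HFB 6, the libraries in which Adipoq was lowest. HFB 3 was close to HFB 6, at 23.0 CPM and with the same 59 counts, and its Adipoq level was 6070 CPM. A counting error of 14.2% made up much of the coefficient of variation of Apln, 20.7%.

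**Figure D2:**
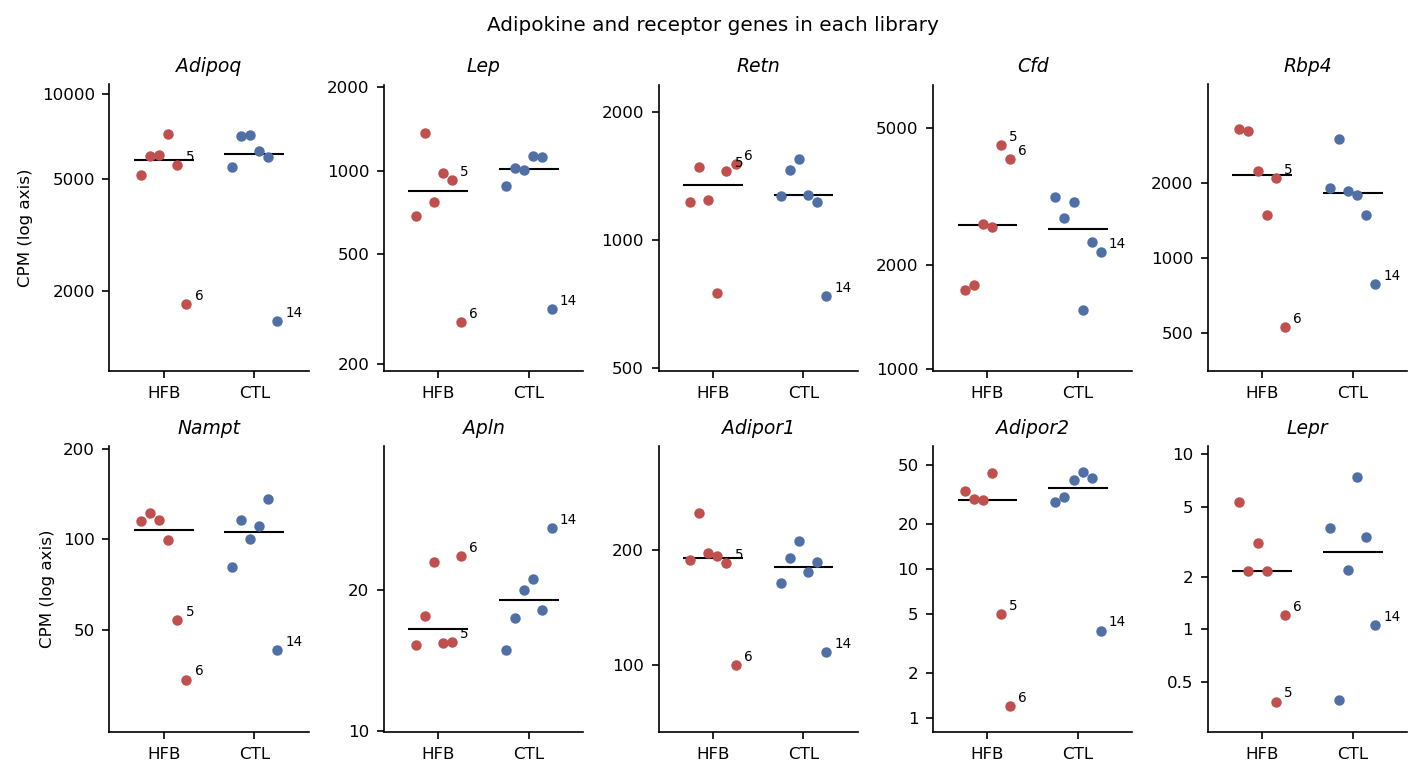
CPM (log axis) of each of the 10 genes in the 6 HFB and 6 CTL libraries, with 1 point per library, a line at the median of each diet, and the numbers of HFB 5, HFB 6 and CTL 14 written beside their points. The diets overlap for every gene, and the widest spread is that of Adipor2, from 1.20 to 44.9 CPM.

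The receptors differed in how evenly they were counted. Adipor1 was at 99.8 CPM in HFB 6, at a median of 190 CPM and at 249 CPM in HFB 2 among the HFB libraries, and at 108 CPM in CTL 14, a median of 181 CPM and 211 CPM in CTL 9 among the CTL libraries. Adipor2 had a lowest, median and highest level of 1.20, 29.4 and 44.4 CPM with HFB and of 3.87, 35.2 and 44.9 CPM with CTL. The low values came from 3 libraries, HFB 6 with 3 counts, CTL 14 with 11 and HFB 5 with 13, while each of the other 9 had between 69 and 124 counts. These were also the 3 libraries with the lowest transcript length index.

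Lepr was close to the limit of detection. It had between 1 and 20 counts per library, 85 in all (36 with HFB and 49 with CTL), and 4 of the 12 libraries, HFB 5, HFB 6, CTL 8 and CTL 14, were at or under the floor of 3 counts. Its level ran from 0.387 to 5.35 CPM in the HFB libraries (median 2.15 CPM) and from 0.395 to 7.42 CPM in the CTL libraries (median 2.77 CPM). It did not pass the filter on low counts, and in a fit without the filter its log2 fold change was -0.34 (SE 0.64).

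The question put to these values is whether the dams' diet left a difference in the glands of the offspring. For none of the 10 genes did the diets separate (0 of 10, against 0.107% of all genes tested). Of the 9 genes that passed the filter, 0 had an adjusted p under 0.05 in the edgeR quasi-likelihood test, and 0 had an unadjusted p under 0.05. The background is the same: 0 of 9382 genes tested (0%) passed the adjusted threshold, and 219 (2.33%) had an unadjusted p under 0.05. DESeq2 and limma-voom with sample quality weights also gave 0 genes past the adjusted threshold, with 271 and 589 genes at an unadjusted p under 0.05. The log2 fold change, HFB minus CTL, was positive for 4 of the 9 genes and negative for 5, with a median of -0.08, beside 0.00 over all genes tested. This split moved between fits, from 2 positive and 7 negative without HFB 2 to 7 positive and 2 negative with the transcript length index as a covariate.

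The intervals show how much of a difference these libraries could have missed. For Adipoq the log2 fold change was -0.08 (SE 0.37), with a 95% interval from -0.87 to 0.72. As a fold of the CTL level this interval runs from 0.547 to 1.65. Lep gave -0.13 (SE 0.35) and an interval from -0.89 to 0.62, Rbp4 gave 0.25 (SE 0.39) and an interval from -0.60 to 1.09, and Nampt gave -0.12 (SE 0.33) and an interval from -0.82 to 0.59. Retn was at 0.03 (SE 0.21, interval -0.42 to 0.48), Cfd at 0.20 (SE 0.28, interval -0.40 to 0.80) and Apln at -0.10 (SE 0.19, interval -0.52 to 0.31). Of the receptors, Adipor1 was at 0.10 (SE 0.20, interval -0.34 to 0.54) and Adipor2 at -0.40 (SE 0.65, interval -1.81 to 1.01), the widest of the 9. The adjusted p was 0.999 for each of the 9 genes.

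**Figure D3:**
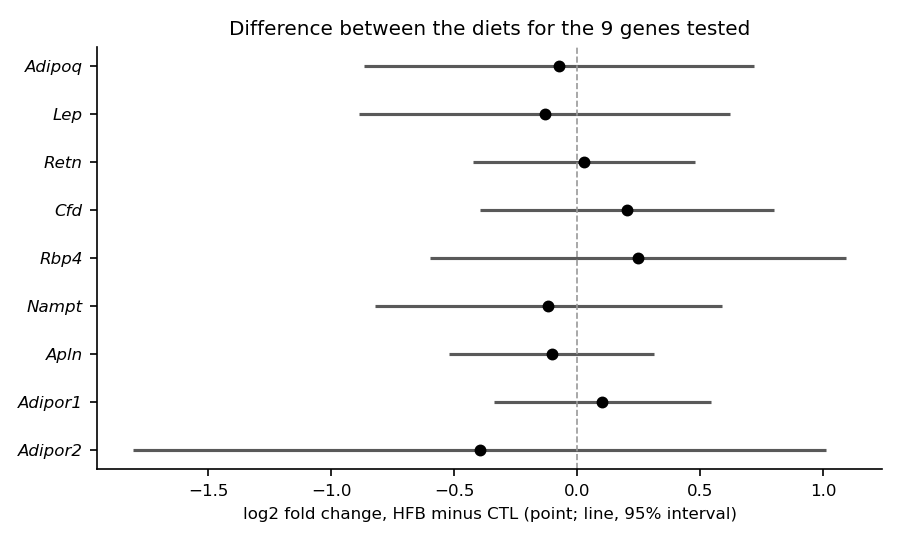
Log2 fold change, HFB minus CTL, of the 9 genes that passed the filter (points) with 95% intervals (lines) from the edgeR fit of all 12 libraries. Every interval crosses 0, and that of Adipor2 is the widest, from -1.81 to 1.01.

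HFB 6 and CTL 14 were left out in an alternative chosen after seeing the data. For the genes low in those libraries the standard errors were smaller, which follows from leaving out their lowest values. Adipoq was then at -0.09 (SE 0.14), Lep at -0.13 (SE 0.17) and Adipor1 at 0.13 (SE 0.12). Retn turned from 0.03 to -0.14. With HFB 5 left out as well, Cfd turned from 0.20 to -0.24, Nampt from -0.12 to 0.06, and Adipor2 moved from -0.40 to -0.10 (SE 0.17). The lowest adjusted p among the 9 genes was 0.930 in each of these 2 fits, and 0 genes of the table passed the threshold. Adipoq and Lep turned to 0.10 and 0.0468 without HFB 6 alone, and to 0.28 and 0.20 with the transcript length index as a covariate.

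Ratios within a library do not depend on its total. The log2 ratio of Lep to Adipoq was between -2.98 and -2.15 in the HFB libraries (median -2.77) and between -2.82 and -2.30 in the CTL libraries (median -2.55). HFB 6 (-2.66) and CTL 14 (-2.30) lay inside the range of the other 10, so the 2 genes were low together there. The ratio was -2.69 ± 0.31 with HFB and -2.57 ± 0.21 with CTL (SD, n = 6 each), a difference of -0.12 (two-sided exact permutation test, p = 0.431, adjusted over 2 ratios p = 0.431). Leaving out 1 library moved it to between -0.23 (without HFB 2) and -0.07 (without HFB 3). The HFB ratio was above the CTL median in 1 of 6 libraries.

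The log2 ratio of Adipor1 to Adipor2 spread much further. It ran from 2.10 to 5.67 with HFB (median 2.88) and from 1.95 to 4.55 with CTL (median 2.45), and HFB 6 (5.67), HFB 5 and CTL 14 (4.55) were the 3 highest of the 12, while the other 9 libraries lay between 1.95 and 3.04. In HFB 6 there were 249 counts of Adipor1 to 3 of Adipor2, a ratio of 83.0 with a 95% exact binomial interval from 28.1 to 405. The log2 ratios include a prior count of 2, which draws them toward 0 at counts as low as these, so 5.67 is below the log2 of 83.0. The mean log2 ratio was 3.50 ± 1.47 with HFB and 2.69 ± 0.94 with CTL (SD, n = 6 each), a difference of 0.81 (two-sided exact permutation test, p = 0.221, adjusted p = 0.431), with 5 of 6 HFB libraries above the CTL median. The difference was 0.37 without HFB 6, 1.18 without CTL 14, 0.74 without both and 0.26 without HFB 5 as well.

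**Figure D4:**
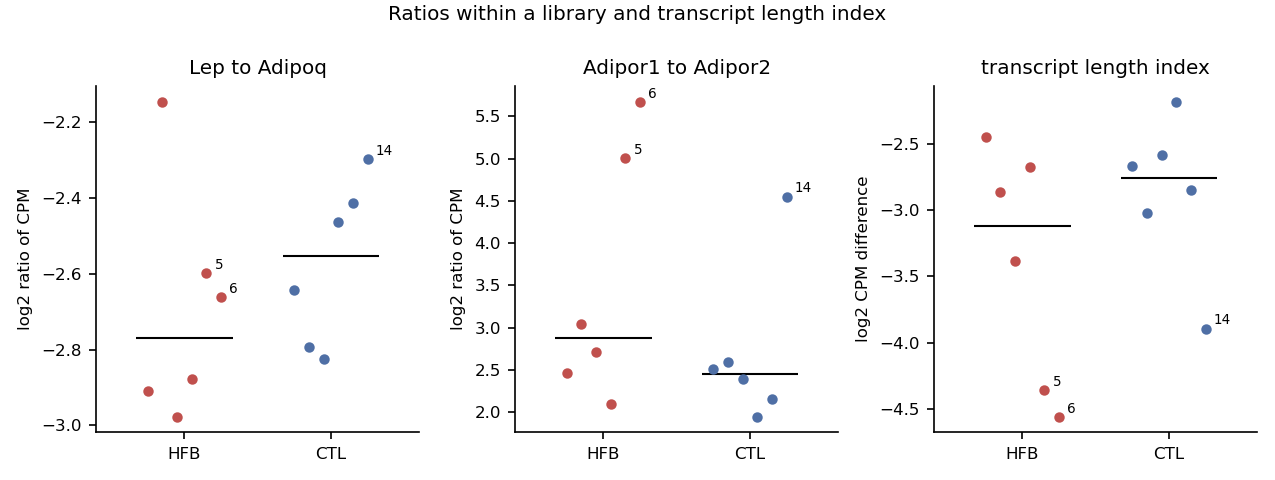
Log2 ratio of Lep to Adipoq, log2 ratio of Adipor1 to Adipor2, and transcript length index (mean log2 CPM of genes with long messenger RNAs minus that of ribosomal protein genes) in each library, with a line at the median of each diet. The 3 libraries with the lowest index, HFB 5, HFB 6 and CTL 14, have the highest Adipor1 to Adipor2 ratios, from 4.55 to 5.67.

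The levels of the 10 genes were compared with the adipocyte marker score, which averages the levels of adipocyte genes and is not a measure of the fat content of the gland. Over the 12 libraries, Adipoq (r = 0.96, permutation p = 0.00331), Lep (r = 0.92, permutation p = 0.00365), Rbp4 (r = 0.88, permutation p = 0.00199), Nampt (r = 0.91, permutation p = 0.00038), Adipor1 (r = 0.94, permutation p = 0.00054) and Adipor2 (r = 0.92, permutation p = 0.00056) were correlated with it, each with an adjusted p of at most 0.00608 over the 10 genes. Retn (r = 0.22), Cfd (r = -0.37), Apln (r = -0.60) and Lepr (r = 0.40) had adjusted p from 0.0522 to 0.561 (permutation tests), and Apln, the nearest to the threshold, passed it in 5 of 19 alternatives. By rank, only Adipor1 passed (Spearman's rho = 0.85, adjusted p = 0.0091, permutation test), while rho was 0.71 for Adipoq, 0.61 for Lep, 0.57 for Rbp4, 0.64 for Nampt and 0.51 for Adipor2 (adjusted p from 0.063 to 0.155, permutation tests). With each diet's mean subtracted, 4 genes passed by rank, Adipoq, Nampt, Adipor1 and Adipor2.

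For Adipoq, Lep, Rbp4 and Adipor1 the relation rested largely on HFB 6 and CTL 14, the 2 libraries farthest from the median score. Nampt and Adipor2 were also low in HFB 5, which had the lowest score of the other 10 libraries. In the other 10 libraries r was 0.44 for Adipoq, 0.19 for Lep, 0.29 for Rbp4, 0.73 for Nampt, 0.48 for Adipor1 and 0.75 for Adipor2, and 0 of the 10 genes passed the adjusted threshold (lowest adjusted p = 0.234, permutation test). Apln changed sign, from -0.60 to 0.53. Each diet held 1 of these 2 libraries. Within the 6 HFB libraries Adipor1 (r = 0.96, adjusted p = 0.0139) and Nampt (r = 0.93, adjusted p = 0.0347) passed, and Adipor1 was in the same rank order as the score (exact permutation tests). Within the 6 CTL libraries r was of similar size for Adipor1 (r = 0.95, adjusted p = 0.0938) and Nampt (r = 0.89, adjusted p = 0.139), and Retn passed (r = 0.97, adjusted p = 0.0417, exact permutation tests). For Adipoq r was 0.96 within HFB (adjusted p = 0.106) and 0.99 within CTL (adjusted p = 0.0625, exact permutation tests), with 6 libraries in each. All values share the library total.

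**Figure D5:**
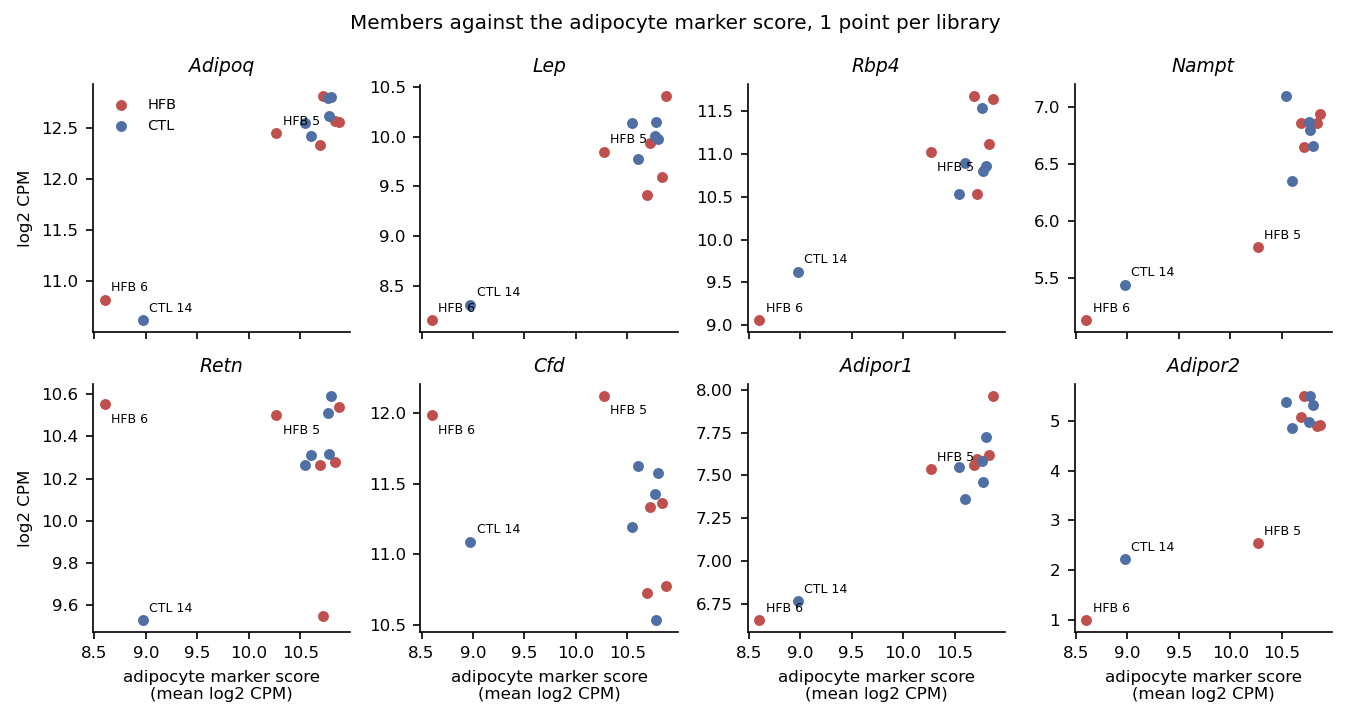
Log2 CPM of 8 of the genes against the adipocyte marker score (mean log2 CPM of 11 genes), with 1 point per library, coloured by diet. HFB 6 and CTL 14 lie apart at scores of 8.60 and 8.97, and the other 10 libraries lie between 10.27 and 10.87.

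The genes most like Adipoq over the 12 libraries, by Pearson's r of log2 CPM among the genes tested, were Cdo1 (r = 0.99), Csad (r = 0.99), Cd302 (r = 0.99), Aoc3 (r = 0.98) and Itgbl1 (r = 0.98). Cdo1 and Csad encode the enzymes that turn cysteine into the precursor of taurine, and Aoc3 encodes an amine oxidase of the adipocyte surface. Without HFB 6 and CTL 14 their r with Adipoq was between 0.69 and 0.81. For Lep the nearest were Srprb (r = 0.98), Anxa1 (r = 0.97), Tmem43 (r = 0.97), Sema3c (r = 0.96) and Sumf1 (r = 0.96), with r between 0.71 and 0.90 in the other 10 libraries. For Nampt they were Rab9a (r = 0.98), Atp6v1a (r = 0.98), Cav2 (r = 0.98), Bzw1 (r = 0.97) and Hspa12a (r = 0.97), and here r was still between 0.91 and 0.94 in the other 10 libraries, among which HFB 5 was low. These are descriptions of genes picked for their likeness, and the libraries behind them share their low points.

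The wider pathway was described with 5 lists, which hold 80 genes. Of these, 76 were in the table and 52 passed the filter; 0 had an adjusted p under 0.05 in either direction, and 1 (1.92%, beside 2.33% of all genes) had an unadjusted p under 0.05. The median log2 fold change was 0.10 for 20 other adipokines, -0.07 for 7 receptors and binding partners, -0.12 for 10 genes of leptin receptor signalling, -0.04 for 8 genes of adiponectin assembly and signalling and 0.02 for 7 genes of the Nampt pathway, beside 0.00 over all genes tested. The 1 gene was Nnmt, which encodes the enzyme that methylates nicotinamide, the substrate of Nampt. Nnmt was at 172, 245 and 320 CPM (lowest, median and highest) with HFB and at 130, 174 and 205 CPM with CTL, and 4 of 6 HFB libraries lay above every CTL library. Its log2 fold change was 0.47 (SE 0.16, edgeR unadjusted p = 0.0115, adjusted p = 0.999), so it did not pass the test, and it was 0.26 without HFB 5, HFB 6 and CTL 14.

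The direct partners of the 10 genes overlapped between the diets as well. Cdh13, a surface protein that binds adiponectin, was at 20.2 to 48.9 CPM with HFB and 25.7 to 69.7 CPM with CTL, and its highest library in each diet was HFB 6 or CTL 14. The same held for Aplnr, the apelin receptor, at 173 CPM in HFB 6 and 106 CPM in CTL 14 against 14.6 to 42.2 CPM in the other 10 libraries. Cap1, which binds resistin, lay between 230 and 423 CPM over the 12 libraries. Stra6, the membrane receptor for the retinol carrier, did not pass the filter and had between 1 and 42 counts.

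Rarres2, the gene of the adipokine chemerin, had medians of 784 CPM (HFB) and 778 CPM (CTL), and its receptor gene Cmklr1 had medians of 75.5 and 73.7 CPM. Serpinf1, the gene of the secreted protein PEDF, was at 652 CPM at the HFB median and 706 CPM at the CTL median, and HFB 5 was its highest library (1047 CPM). Lcn2, which encodes lipocalin 2, varied from 22.2 to 318 CPM with HFB and from 56.1 to 235 CPM with CTL. Angptl4, an inhibitor of lipoprotein lipase, fell on both sides of the CTL range in the HFB group, with 3 libraries above every CTL library and 3 below. Of the leptin signalling genes, Stat3 was even (82.7 to 147 CPM over the 12 libraries), Jak2 was lowest in HFB 5 (6.19 CPM, against 13.6 CPM or more elsewhere) and Socs3, an inhibitor of this signal, had only 1 to 11 counts per library.

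Markers of the other cell types in the gland gave no gene past the adjusted threshold. Median log2 fold changes were 0.06 for the adipocyte list, 0.15 for brown adipocytes (most abundant Cidea), -0.27 for epithelium (Krt8), 0.42 for skeletal muscle (Acta1), 0.34 for lymphoid cells (over the 3 of 7 genes that passed the filter), 0.18 for macrophages (C1qa), -0.15 for endothelium (Pecam1), -0.13 for fibroblasts (Col3a1) and 0.85 for red blood cells (Hbb). Only in the macrophage list were there genes with an unadjusted p under 0.05, C1qb and C1qc (2 of 8, beside 2.33% of all genes), named here after their values were seen. C1qa, of the same complement complex, was at 330 CPM in HFB 5 and 388 CPM in HFB 6, against 187 CPM or less elsewhere. Apart from the lymphoid list, only the brown adipocyte list had a marker at 0 counts, 1 gene in each of 7 libraries. HFB 6 and CTL 14 had the highest Pecam1 levels (256 and 240 CPM, against 60.7 CPM or less), but the mean log2 CPM of the 4 endothelial markers was 5.56 in HFB 6, below that of HFB 4, CTL 9 and CTL 11, and 6.35 in CTL 14, the highest of the 12. The same 2 libraries had the lowest Col3a1 levels (7607 and 8530 CPM, against 13564 CPM or more), and the part of these differences in the levels of the 10 genes was not tested.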

How the data were processed

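Mammary glands (whole, per the deposited description) of PND21 rats, 1 per litter, gave 12 libraries, 6 from each maternal diet, from RNA made with a lipid tissue kit. The deposited values are counts of reads per gene for 16511 Entrez identifiers; the submitters' processing notes name bcl2fastq, CASAVA 1.8, TopHat, DESeq and the build rn4, with no role or order. The counter, annotation and strand setting are not given in the sources used here. The 10 genes and all lists were chosen with earlier results of these data known. Symbols came from the RefSeq GRCr8 table, which matched 16351 of the 16511 identifiers. A gene is named when it is 1 of the 10, a direct partner, a marker list's most abundant gene, among the 5 most alike, or a list gene with an unadjusted p under 0.05.

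Genes were filtered with filterByExpr, normalized with TMM and compared with the robust quasi-likelihood test of edgeR 4.0.16 in R 4.3.3, with Benjamini-Hochberg adjustment at 0.05 over the 9382 genes tested. CPM used TMM factors, and log2 CPM a prior count of 2. Ratios were compared by exact permutation over 924 assignments, and correlations by 100000 resamples. The scripts were tested on simulated data. Other tools were DESeq2 1.42.0, limma 3.58.1, Python 3.11.15, numpy 2.4.6, pandas 2.3.3, scipy 1.17.1 and matplotlib 3.10.9. No 2 libraries of 1 diet had counts as close as repeat counts of 1 library would be (lowest chi-squared per degree of freedom 6.691 over 30 pairs).

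The lists were 9 marker lists (adipocyte, brown adipocyte, epithelium, skeletal muscle, lymphoid, macrophage, endothelium, fibroblast and red blood cell) and 5 wider lists (other adipokines, receptors and binding partners, leptin receptor signalling, adiponectin assembly and signalling, and the Nampt pathway). The transcript length index was chosen after seeing the data; its 28 genes with long messenger RNAs, of which 18 passed the filter, come from general knowledge, since no file gives transcript lengths. Alternatives were other scalings and filters, DESeq2, limma-voom with sample quality weights, the adipocyte score as a covariate and leaving out each library in turn; 3 more were added after seeing the data, leaving out HFB 6 and CTL 14, leaving out these and HFB 5, and the length index as a covariate.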

Additional observations from a re-analysis of the deposited data

Results flagged for a closer look

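A gap test within each diet was applied to 58 groups of values; it marks about 1 in 20 groups by chance, and it found 16. The groups share libraries and hold genes that vary together, so these 16 are not independent and cannot be weighed against that rate. Of these, 7 were in CTL 14, 3 in HFB 6 and 2 in HFB 5. CTL 14 was low for Adipoq (1564 CPM, against 5489 to 7143 CPM in the other CTL libraries) and Lep (317 CPM, against 878 to 1133 CPM), and high for Aplnr (106 CPM, against 24.4 to 42.2 CPM), Cap1 (423 CPM, against 230 to 284 CPM), the log2 ratio of Adipor1 to Adipor2 (4.55, against 1.95 to 2.60) and the lymphoid marker score (6.80, against 0.307 to 2.63). Its adipocyte marker score was low (8.97, against 10.54 to 10.80). HFB 6 was low for the adipocyte marker score (8.60, against 10.27 to 10.87) and high for Aplnr (173 CPM, against 14.6 to 35.8 CPM) and Stra6 (16.8 CPM, against 0.390 to 4.25 CPM). HFB 5 was high for Rarres2 (1259 CPM, against 607 to 813 CPM) and Serpinf1 (1047 CPM, against 575 to 685 CPM). HFB 4 was low for Retn (749 CPM, against 1229 to 1503 CPM), and CTL 10 was high for Angptl4 (220 CPM, against 84.5 to 134 CPM). Total counts were low in HFB 1 (2320267) and high in CTL 7 (2944680).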

How the results depend on the processing

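No gene of the table passed the adjusted threshold in any of the 22 alternative fits, and the lowest adjusted p among the 10 genes was 0.667. Libraries could not be paired, since no label names a pair. The count of genes with an unadjusted p under 0.05, 219 in the fit of all 12 libraries, moved to 589 with limma-voom and sample quality weights (called weighted voom below, where test and weights changed together), 697 with the adipocyte score as a covariate, and from 135 (without HFB 5) to 587 (without CTL 14) when each library was left out in turn. In the fits chosen after seeing the data it was 408 without HFB 6 and CTL 14, 462 without HFB 5 as well, and 344 with the transcript length index as a covariate.

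Signs of small log2 fold changes turned, and each range from 1 named library to another below is over the fits with 1 library left out. Adipoq was at 0.0359 with the adipocyte covariate, 0.28 with the index covariate, and between -0.26 (without CTL 14) and 0.10 (without HFB 6) with 1 library left out. Lep was at 0.20 with the index and between -0.33 (without HFB 2) and 0.0468 (without HFB 6). Retn was at -0.0152 with upper-quartile scaling, -0.16 with weighted voom, -0.14 and -0.20 without the 2 and the 3 libraries, and between -0.0719 (without CTL 14) and 0.14 (without HFB 4). Cfd was at -0.16 with weighted voom, -0.24 without the 3 libraries, -0.13 with the index, and between 0.03 (without HFB 5) and 0.31 (without HFB 1). Nampt was at 0.0476 with weighted voom, 0.0588 without the 3 libraries, 0.20 with the index, and between -0.27 (without CTL 14) and 0.0511 (without HFB 6). With 1 library left out, Apln lay between -0.19 (without HFB 6) and 0.0217 (without CTL 14), and Adipor1 between -0.0022 (without HFB 2) and 0.23 (without HFB 6); with the index they were at -0.21 and 0.28. Adipor2 turned to 0.24 with the index, lay between -0.67 (without HFB 4) and -0.15 (without HFB 6) and had no value with at least 10 counts in every library. Rbp4 stayed positive, from 0.08 to 0.51. Both ratios kept their direction, from -0.23 (without HFB 2, exact permutation p = 0.0801) to -0.07 (without HFB 3) for Lep to Adipoq and from 0.26 (without the 3 libraries) to 1.18 (without CTL 14) for Adipor1 to Adipor2. The cause of these changes was not tested.

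Correlations with the adipocyte marker score had adjusted p of 0.05 or more in smaller sets of libraries in these cases (permutation tests). Within HFB r was 0.962 for Adipoq, 0.889 for Lep, 0.900 for Rbp4 and 0.916 for Adipor2. Within CTL it was 0.994 for Adipoq, 0.9751 for Lep, 0.878 for Rbp4, 0.892 for Nampt, 0.949 for Adipor1 and 0.974 for Adipor2. Without the 2 farthest libraries it was 0.438 for Adipoq, 0.185 for Lep, 0.288 for Rbp4, 0.729 for Nampt, 0.485 for Adipor1 and 0.753 for Adipor2. Retn reversed to -0.383 within HFB and -0.0215 without the 2 libraries, passed the threshold within CTL (0.967, adjusted p = 0.0417, exact permutation test), and ran from -0.248 (without CTL 14) to 0.606 (without HFB 6) with 1 library left out. Cfd reversed to 0.154 within CTL, was -0.657 within HFB, and ran from -0.558 (without CTL 14) to -0.0782 (without HFB 6) with 1 library left out. Apln passed the threshold in 5 alternatives, with DESeq2 size factors (-0.625, adjusted p = 0.0391), with diet means subtracted (-0.620, adjusted p = 0.0481) and without HFB 3, HFB 5 or CTL 10 (permutation tests), reversed to 0.529 without the 2 libraries, was -0.743 within CTL, and ran from -0.712 (without HFB 3) to -0.390 (without CTL 14) with 1 library left out. By rank, 1 gene passed over the 12 libraries, 4 with diet means subtracted, 0 without the 2 farthest libraries, and 0 (without HFB 6) to 3 (without HFB 3 or CTL 11) with 1 library left out.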
